A study of Mus musculus with 7 samples.

Results

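The SLC26 genes encode membrane proteins that exchange or conduct anions such as chloride, bicarbonate, sulfate, iodide and oxalate. A total of 10 of them were followed in alpha cells of the mouse pancreas, the source of glucagon, out of 55536 genes in the count table. They were taken by gene symbol, and the family was chosen by the fall of Slc26a1 between KO and control libraries. That contrast is therefore given as a description of the members. No member's p-value is printed, and the number of members past the threshold stands only beside the share of all genes past it. All 7 libraries came from cells that carried Gcg-iCre, a Cre recombinase driven by the glucagon gene, and the red reporter Rosa26:tdTomato, and that were sorted by red fluorescence from islets of C57BL/6J mice. In the 4 control libraries the mice were Nkx2.2+/+ with Gcg-iCre and Rosa26:tdTomato. In the 3 KO libraries they were Nkx2.2fl/fl with the same Cre and reporter, so that cells expressing Cre can lose the homeodomain transcription factor NKX2.2. The age of the mice and whether each library is a separate animal are not given in the sources used here, so p-values measure the spread between these libraries. The KO column that carries a number found in no KO title is called the unnumbered KO library. Values per library follow the order controls 1, 2, 3 and 4, then KO 1, KO 2 and unnumbered KO.

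Family members differ in what they carry and where they are known to act. Slc26a1 and Slc26a2 are sulfate transporters, the first best known in liver and kidney, where it also carries oxalate, and the second in cartilage, where it supplies sulfate for proteoglycans. Slc26a3, Slc26a4 and Slc26a6 are chloride exchangers, known for intestinal bicarbonate secretion, thyroid and inner ear anion transport, and bicarbonate and oxalate transport in epithelia such as the pancreatic duct. Every cell that sulfates proteins or glycans needs sulfate, which is activated to the donor PAPS before sulfotransferases use it.

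Slc26a1 (ENSMUSG00000046959) lies on chromosome 5 from 108669878 to 108675569 on the minus strand, in the GENCODE M21 annotation of GRCm38. Its whole length is inside Idua (chromosome 5, 108660331 to 108684557), a gene on the plus strand that encodes a lysosomal enzyme of glycosaminoglycan breakdown. An Idua exon of 141 bases, from 108670119 to 108670259, lies within the last exon block of Slc26a1 and covers 3.48% of the exon length of 4050 bases. The remaining exon sequence of Slc26a1 is opposite to introns of Idua. Slc26a10 shares 17.8% of its exon length with B4galnt1 on the opposite strand. The other 8 members have no gene on the opposite strand of their bodies. On chromosome 12, Slc26a3 (31390871 to 31473917, plus strand) and Slc26a4 (31519827 to 31559969, minus strand) are neighbours that point towards each other without overlap.

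**Figure D1:**
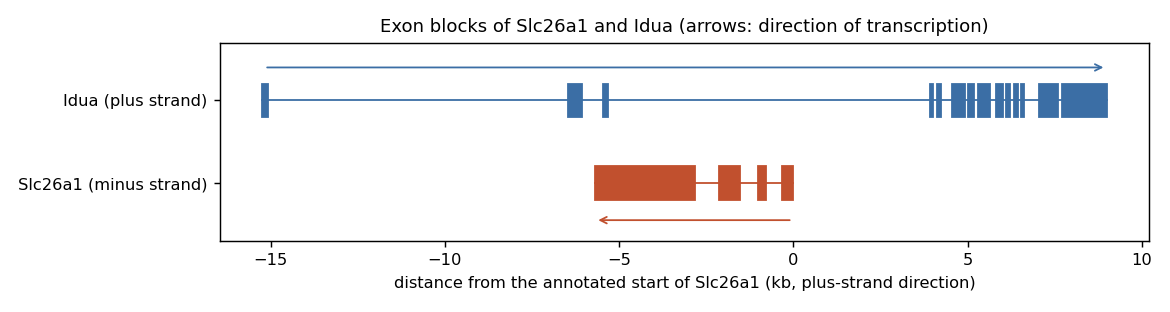
Exon blocks (boxes) of Slc26a1 and Idua, with the distance from the annotated start of Slc26a1 in kb on the horizontal axis and arrows for the direction of transcription. Slc26a1 lies inside Idua on the other strand, and 1 Idua exon of 141 bases falls within its last exon block.

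RefSeq places 2 starts in Slc26a1, and the sequence around each is shown because the gene changed most in the family and the deleted factor binds DNA. Each stretch runs 5′ to 3′ on the minus strand of GRCm38.p6, from 250 bases before to 50 bases after a start. Capitals mark the core AAGTG of the NK2 homeodomain class, which is written CACTT where it lies on the other strand. The upstream window is chr5:108675316-108675615 and the downstream window is chr5:108674747-108675046.
Upstream start of Slc26a1: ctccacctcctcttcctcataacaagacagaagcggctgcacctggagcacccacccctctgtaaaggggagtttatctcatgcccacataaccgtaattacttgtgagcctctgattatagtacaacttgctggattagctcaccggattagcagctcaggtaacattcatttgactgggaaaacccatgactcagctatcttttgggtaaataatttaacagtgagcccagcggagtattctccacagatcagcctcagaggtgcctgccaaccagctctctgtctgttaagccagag
Downstream start of Slc26a1: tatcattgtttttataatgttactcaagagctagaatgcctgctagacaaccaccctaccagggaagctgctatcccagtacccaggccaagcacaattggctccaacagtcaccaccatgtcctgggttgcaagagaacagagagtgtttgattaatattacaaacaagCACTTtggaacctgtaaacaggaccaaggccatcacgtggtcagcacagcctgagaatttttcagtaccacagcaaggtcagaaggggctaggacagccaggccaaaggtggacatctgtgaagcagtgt

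The upstream window held 0 copies of AAGTG on either strand, and the downstream window held 1, at position -80 from the start. This core occurs in 46.4% of 32851 RefSeq promoter windows of the same 300 bases. Among the 8 windows that matched a member (7 members), 6 held it. The longer site TNAAGTGG, which contains the core, was in neither Slc26a1 window, in 1 of the 8 member windows (that of Slc26a6) and in 3.21% of all windows. A match is a string of letters and not a measured binding site, and its absence says only that these letters are not in these windows.

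Nkx2-2, the targeted gene, was counted in every library, at 8596, 11199, 12297 and 9782 normalized counts in the controls and 7758, 7534 and 7694 in KO. A normalized count is the raw count over the size factor that DESeq2 gives a library. Every KO library was below every control (10468 ± 1618, SD, n = 4, against 7662 ± 115, SD, n = 3, log2 fold change -0.45, adjusted p = 0.0218 in DESeq2 and 0.152 in edgeR), and 2 of the 7 fits without 1 library kept the call (adjusted p up to 0.156). With size factors from total counts it was not called (0.0976). The count covers the whole gene, and which exons the deletion removes is not given in the sources used here. Exons on the opposite strand cover 9.67% of the Nkx2-2 exon length, and the strand setting of the counting is also not given.

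Libraries held between 45483504 and 72456557 counts. Control 4 and the unnumbered KO library were the deepest. Control 4 had counts for 31024 genes, while the other libraries had counts for 23150 (control 3) to 25873 (unnumbered KO). The part of this difference in the member counts of control 4 was not tested. Of 49 member counts above 0, 41 were even (83.7%), and with all counts halved the log2 fold change of Slc26a1, KO over control, was -2.78, close to that from the counts as deposited. Of the alpha cell markers, Gcg, Irx1, Irx2, Ttr, Gc and Slc38a5 were each above 3 counts in every library. Gcg, the glucagon gene, had 7042730 ± 855536 (SD, n = 4) normalized counts in controls and 3423110 ± 635109 (SD, n = 3) in KO. In DESeq2, Gcg, Irx1, Irx2, Ttr and Slc38a5 were called lower in KO and Gc was not. Of these 6, edgeR called Ttr and Slc38a5. The part of this shift in the values of the SLC26 genes was not tested.

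Several members were scarcely seen. Slc26a3, Slc26a4, Slc26a7, Slc26a9 and Slc26a10 had at most 13 counts in any library, and none of the 5 passed the filters on low counts of either tool. Slc26a3 had 2 counts in control 4 and in KO 1 and 0 in the other libraries, and Slc26a4 had 2 in control 3 and in KO 2 and 0 elsewhere. Slc26a7, an anion transporter of kidney and stomach, had 4 counts in control 2, 6 in control 4, 4 in KO 2 and 2 in the unnumbered KO library. Slc26a9, a chloride channel of airway and stomach, had 10 counts in control 4, 2 in KO 2 and 0 in the rest. Slc26a10 had 13 counts in control 4, 4 in KO 2, 1 in control 1 and in KO 1, and 0 in the others. A count of 0 still allows 3 counts, which is 0.0414 to 0.0660 CPM (counts scaled to a common library total) in these libraries. This allowance covers counting error only and takes each count as independent. Most member counts above 0 were even, and where counts come in pairs the allowance is too low. Any difference between groups in these 5 genes was not detectable at this depth.

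The other 5 members were above 3 counts in all 7 libraries, and their levels in control cells were compared per kilobase of exon. Slc26a2 had the highest mean, 100 ± 10.8 (SD, n = 4) normalized counts per kb, and its lowest control value of 90.9 was above the highest of Slc26a8, 71.1. In control 4 alone Slc26a1, at 108, was above Slc26a2, at 90.9. Slc26a8, known for its role in sperm, followed with 51.2 ± 13.3 normalized counts per kb, then Slc26a1 with 49.9 ± 39.9, Slc26a6 with 32.1 ± 8.73 and Slc26a11, a sulfate transporter found in many tissues, with 20.2 ± 4.15. From Slc26a8 downwards each gene overlapped its neighbour in the order over the 4 control libraries. Slc26a1 spread widest, from 22.4 to 108 normalized counts per kb, and without control 4 its mean was 30.4 ± 10.3 (SD, n = 3), close to the 29.8 ± 9.20 of Slc26a6. Slc26a8 and Slc26a1 changed places when control 1 or control 2 was left out. Slc26a2 stood at the percentile 70.1 of all 35178 genes with a count, by mean control level per kb, and Slc26a11 at 52.3. In KO libraries Slc26a1 had 7.37 ± 3.78 (SD, n = 3) normalized counts per kb, the lowest of the 5, and its highest KO value of 11.2 lay below every library of the other 4 genes.

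Slc26a1 was the member that separated the groups. The controls held 80, 92, 130 and 608 raw counts of it, and the KO libraries held 30, 44 and 20. After normalization the controls stood at 90.8, 109, 170 and 439 and the KO libraries at 29.3, 45.4 and 14.8. Every KO library was below every control library, and control 4 was far above the other controls. The control mean was 202 ± 162 (SD, n = 4) and the KO mean 29.9 ± 15.3 (SD, n = 3), or 14.8% of control, and the DESeq2 fit gave a log2 fold change of -2.77 (SE 0.59). Without control 4 the control mean was 123 ± 41.6 (SD, n = 3), KO stood at 24.3% of it, and the log2 fold change was -2.06 (SE 0.48). Without both deepest libraries, an alternative chosen after seeing the data, it was -1.72 (SE 0.46). Slc26a1 made up between 5.10% and 19.7% of the summed normalized counts of the 10 members in controls and between 0.774% and 2.38% in KO. In bulk RNA, fewer cells that express a gene and less RNA per cell cannot be told apart.

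**Figure D2:**
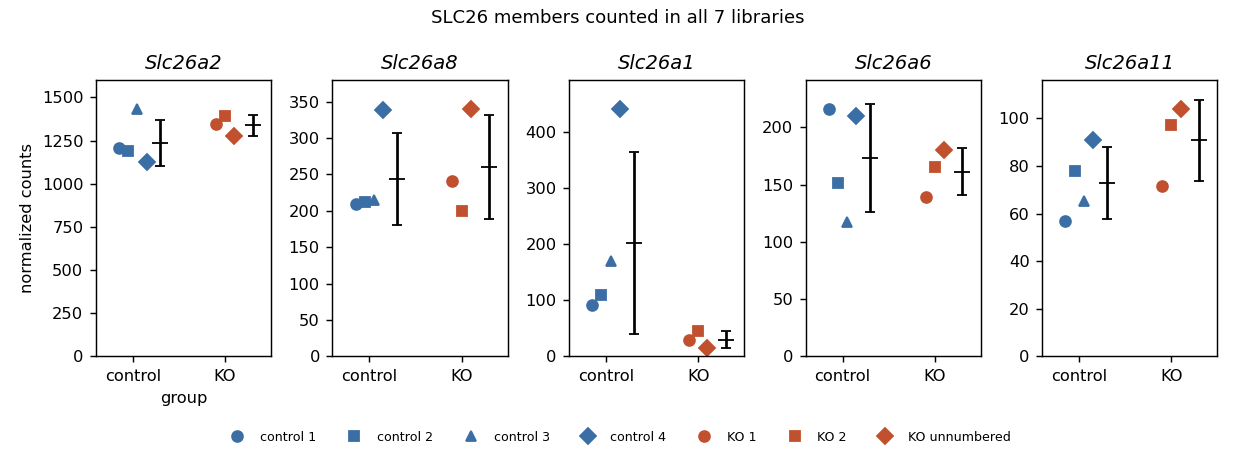
Normalized counts (vertical axes, each from 0) of the 5 members counted in every library, with 1 symbol per library and the group mean ± SD beside the symbols (control n = 4, KO n = 3). Only Slc26a1 has all KO libraries (14.8 to 45.4) below all controls (90.8 to 439), and control 4 lies apart for Slc26a1 and Slc26a8.

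Idua, the gene around Slc26a1, differed little between the groups. The controls held 823, 834, 986 and 774 normalized counts, the KO libraries 816, 841 and 890. The groups overlapped, and the log2 fold change was -0.01 (SE 0.14). Set against the Idua counts of the same library, those of Slc26a1 came to 11.0%, 13.0%, 17.2% and 56.8% in the controls, while the KO libraries had 3.60%, 5.41% and 1.67%. Read against Idua within each library, the KO libraries were all below the controls, and control 4 stood apart. Because Idua differed little, this restates the Slc26a1 contrast that chose the family and is no separate support for it. The 2 genes can be separated only by strand where Idua introns are read, and the strand setting of the counting is not given in the sources used here.

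**Figure D3:**
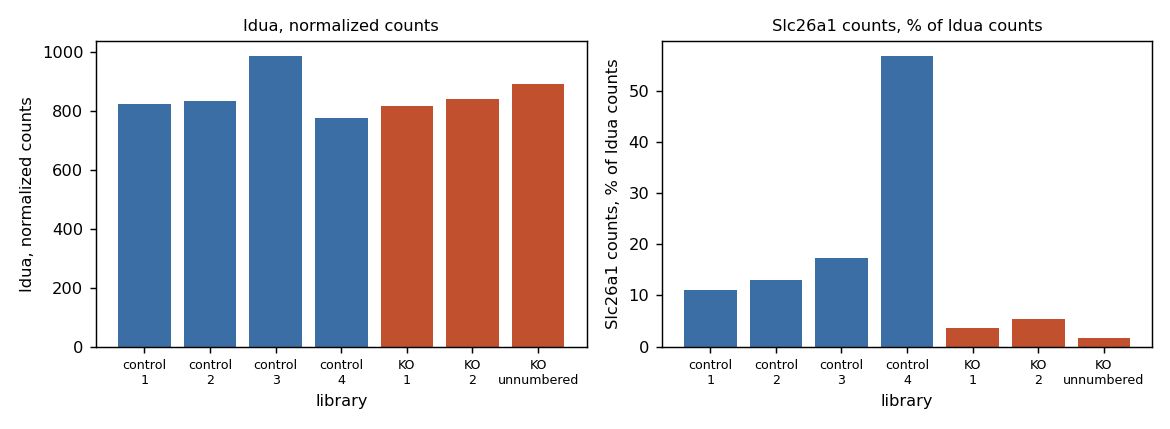
Normalized counts of Idua (left) and counts of Slc26a1 as a percentage of Idua counts (right) in each library, with controls in blue and KO in orange. Idua lies between 774 and 986 in all libraries, while the Slc26a1 percentage is 11.0 to 56.8 in controls and 1.67 to 5.41 in KO.

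A share of the genes placed like Slc26a1, which is itself among them, was high in control 4. Among 263 protein-coding genes that lie inside a gene of the opposite strand with at most 5% of their exon length under its exons, and with a mean of at least 20 normalized counts, 24.3% were more than 1 log2 unit above the mean of the other libraries in control 4. In the other 6 libraries this share was between 2.28% and 5.32%, and in control 4 it was 3.28% among 7350 protein-coding genes with no opposite-strand gene. Slc26a1 was 2.92 log2 units above the mean of the other libraries in control 4. The unnumbered KO library had the lowest Slc26a1 level of all. There the median deviation from the other libraries was -0.08 log2 units for these genes and -0.06 for genes with no opposite-strand gene. The part of these library properties in the Slc26a1 levels of control 4 and the unnumbered KO library was not tested. Of the 263 genes of this class, 229 had an adjusted p-value with all libraries, and 229 without control 4. Of the 7350 comparison genes, which lack an opposite-strand gene, 7328 and 7317 had one. A larger part of the class was thus left out of the calls. Whether the genes left out were those high in control 4 was not tested. Of the class genes kept, 3.49% were called lower in KO with all libraries and 3.93% without control 4. The matching shares of the comparison genes were 2.99% and 3.17%.

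Slc26a2 and Slc26a11, the other members named above as sulfate transporters, had no KO mean below the control mean. For Slc26a2 the controls held 1207, 1187, 1430 and 1125 normalized counts, the KO libraries 1348, 1390 and 1274. The groups overlapped, with a log2 fold change of 0.11 (SE 0.13). For Slc26a11 the controls held 56.7, 77.8, 65.4 and 91.1, the KO libraries 71.4, 97.1 and 104, also overlapping, with a log2 fold change of 0.31 (SE 0.37). Over the 15 alternative settings the log2 fold change ran from 0.07 to 0.22 for Slc26a2 and from 0.20 to 0.46 for Slc26a11.

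Slc26a6, the chloride, bicarbonate and oxalate exchanger of epithelia, stood at 216, 151, 118 and 210 normalized counts in the controls, with the KO libraries at 139, 165 and 180. The KO libraries lay within the range of the controls, and the log2 fold change was -0.11 (SE 0.31). For Slc26a8 the controls held 209, 212, 214 and 338, the KO libraries 242, 199 and 339, with a log2 fold change of 0.09 (SE 0.30). Neither gene kept 1 sign over the alternative settings (-0.26 to 0.01 for Slc26a6, -0.15 to 0.30 for Slc26a8). The 2 high values of Slc26a8 belonged to control 4 and the unnumbered KO library, the deepest library of each group, while the other 5 lay between 199 and 242.

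**Figure D4:**
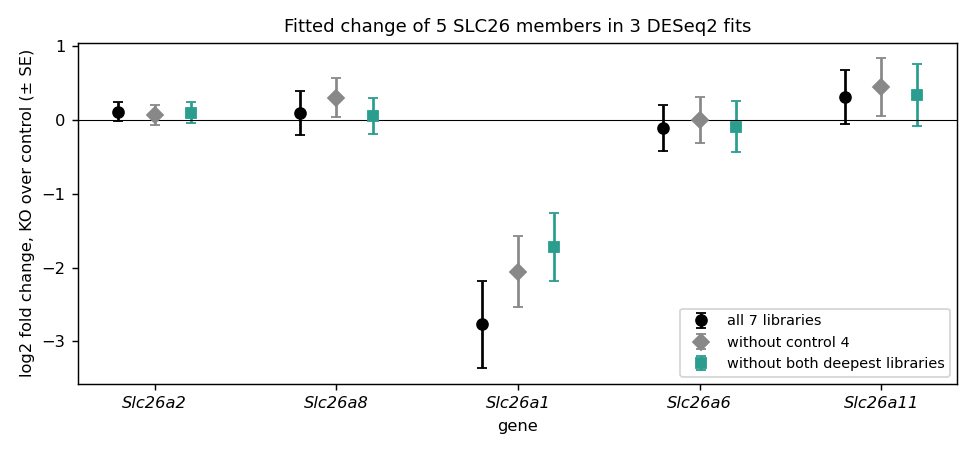
DESeq2 log2 fold change, KO over control, with its SE (vertical axis) for the 5 members counted in every library, from all 7 libraries, without control 4 and without both deepest libraries. Slc26a1 lies at -2.77, -2.06 and -1.72 in the 3 fits, and the other 4 genes lie between -0.11 and 0.45.

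By the threshold used across all genes (adjusted p under 0.05), DESeq2 called 1 of the 5 members it tested, Slc26a1, beside 4.51% of 17571 genes tested, or 2.27% called lower. The edgeR quasi-likelihood test called 0 of the 5 beside 1.05% of 19310 genes, and gave Slc26a1 the same log2 fold change of -2.77. Groups did not overlap in 1 of the 5, beside 12% of the genes tested in DESeq2. Because the family was chosen by this contrast, nothing is read from these shares. With each of the 7 libraries dropped in turn, the log2 fold change of Slc26a1 ran from -3.21 without KO 2 to -2.06 without control 4.

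Genes whose level followed Slc26a1 over the 7 libraries were found by Pearson correlation of log2(normalized count + 1) among 14569 genes with a mean of at least 50 normalized counts. The 5 closest were Prom2 (r = 0.99), which encodes a prominin of membrane protrusions, Mfsd13a (0.99), Eva1b (0.99), Myo18a (0.99), an unconventional myosin, and D630003M21Rik (0.98). All 5 were highest in control 4 and lowest in the unnumbered KO library, as was Slc26a1, and without control 4 their r stayed between 0.97 and 0.99. These genes were picked from all of these over 7 libraries that share the group difference, so the values describe a likeness only. None of the 5 lies wholly inside an opposite-strand gene. The bodies of Mfsd13a, Myo18a and D630003M21Rik overlap one in part, with 0% of their exon length under its exons. D630003M21Rik had 224 ± 104 (SD, n = 4) normalized counts in the controls and 70.7 ± 17.1 (SD, n = 3) in KO, a log2 fold change of -1.67, which was -1.21 without both deepest libraries. Prom2 had 481 ± 98.4 (SD, n = 4) and 280 ± 44.5 (SD, n = 3), a log2 fold change of -0.79, which was -0.51 without both deepest libraries. Both were picked for following Slc26a1, whose fall chose the family, so lower KO levels were built in. Their calls and p-values are therefore not given.

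Sulfate that enters through such transporters feeds a longer pathway, whose genes for sulfate entry, transfer and removal make up the first 3 of 7 lists. Counts of called genes in these lists stand beside 4.51% of all genes called in DESeq2, and nothing particular to a list is read from them. Papss1 and Papss2, the synthases of the sulfate donor PAPS, had log2 fold changes of 0.07 (SE 0.14) and 0.05 (SE 0.19). Papss1 had 2799 ± 362 (SD, n = 4) normalized counts in controls and 2931 ± 325 (SD, n = 3) in KO, and Papss2 had 4214 ± 867 and 4360 ± 899, all within the spread of the libraries. Of 9 genes for sulfate entry and PAPS supply, 7 were tested, 1 was called lower and 0 higher, and the median log2 fold change was -0.04, beside 0.01 over all genes tested. The called gene was Suox, the mitochondrial sulfite oxidase that produces sulfate from sulfite. It fell from 1894 ± 259 in controls to 1197 ± 315 in KO (log2 fold change -0.66, adjusted p = 0.0248 in DESeq2). Its call was lost without control 1, control 3, KO 2 or the unnumbered KO library, with adjusted p up to 0.154, and in edgeR (0.187).

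Sulfotransferases and sulfatases had 2 genes each past the threshold in DESeq2. Of 30 sulfotransferases, 24 were tested, 2 were called lower and 0 higher, with a median log2 fold change of -0.04. Both called genes modify heparan sulfate. Hs6st3 stood at 1772, 1553, 2305 and 2819 normalized counts in the controls, the KO libraries at 1057, 1088 and 1151 (log2 fold change -0.94, adjusted p = 0.000224 in DESeq2 and 0.0615 in edgeR). Hs3st1 stood at 281, 248, 233 and 218 in the controls, the KO libraries at 66.5, 84.7 and 145 (-1.30, adjusted p = 0.0026 in DESeq2 and 0.104 in edgeR), and its call was lost without KO 1 (0.0635). In both genes the groups did not overlap.

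Of 13 listed sulfatases and their activators 12 were analysed here, 1 was called higher and 1 lower, and the median log2 fold change was 0.11. Ids, a lysosomal sulfatase of heparan and dermatan sulfate breakdown, fell from a control mean of 9781 ± 801 (SD, n = 4) normalized counts to 5496 ± 1015 (SD, n = 3) (log2 fold change -0.83, adjusted p = 1.31e-06 in DESeq2 and 0.0324 in edgeR). It was the single gene of these lists that both tools called. Sulf2, which removes sulfate from heparan sulfate outside the cell, rose from 412 ± 63.8 to 686 ± 116 (0.74, adjusted p = 0.00965 in DESeq2 and 0.112 in edgeR). The call of Sulf2 was lost without control 3, KO 1 or KO 2, with adjusted p up to 0.197.

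Chloride channels and regulators had a called gene in each direction. Of 23 chloride channels and regulators, 20 were tested, 1 was called higher and 1 lower, and the median log2 fold change was 0.02. Clcn7, a lysosomal chloride and proton exchanger, had 894, 1115, 1088 and 745 normalized counts in controls and 1626, 1868 and 1484 in KO (log2 fold change 0.79, adjusted p = 0.00056 in DESeq2 and 0.0536 in edgeR). Lrrc8c, a subunit of volume-regulated anion channels, fell from 236 ± 24.3 (SD, n = 4) to 119 ± 32.2 (SD, n = 3) (50.3% of control, adjusted p = 0.0114 in DESeq2), a call lost without control 2, control 3, KO 1 or the unnumbered KO library (adjusted p up to 0.145) and in edgeR (0.146). Of 9 cation-chloride cotransporters, 8 were tested and 1 was called. Slc12a2, which brings sodium, potassium and chloride into cells, had 1567, 1775, 1246 and 990 in controls and 2371, 2255 and 2105 in KO (0.69, adjusted p = 0.0146 in DESeq2 and 0.148 in edgeR), and its call was lost without control 3, KO 1 or KO 2 (up to 0.188).

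Cftr, the chloride and bicarbonate channel that works beside SLC26 exchangers in duct epithelium, was not past the threshold. The controls held 13.6, 37.7, 2.61 and 18.8 normalized counts, the KO libraries 60.6, 72.3 and 61.5, and the groups did not overlap. The fitted difference was 1.83 on the log2 scale, with SE 0.73. Its adjusted p was 0.166 in DESeq2 and 0.358 in edgeR, and without control 2 alone it passed (0.0288). Of 8 duct markers, of which Cftr is 1 and Epcam is also made by islet cells, 7 were above 3 counts in all libraries and 2 (Spp1 and Epcam) were called higher in DESeq2, and the summed list ran from 334 to 450 CPM in controls and from 520 to 574 CPM in KO. The part of duct cell RNA in the Cftr, Slc26a6 and Slc12a2 values was not tested. Of 10 SLC4 bicarbonate transporters 6 were tested, and 0 were called in DESeq2 or edgeR. In DESeq2 1 of the 6 had an unadjusted p under 0.05, beside 2137 of all 17571 genes tested. Of 16 carbonic anhydrases 6 were tested, and Car3 was called higher (log2 fold change 3.87, adjusted p = 0.0486 in DESeq2 and 0.221 in edgeR). Car3 rested on few counts, with 0, 9.44, 0 and 1.45 normalized counts in the controls against 39.1, 67.1 and 11.9, and lost its call without control 1, control 3 or any KO library (adjusted p up to 0.350).

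**Figure D5:**
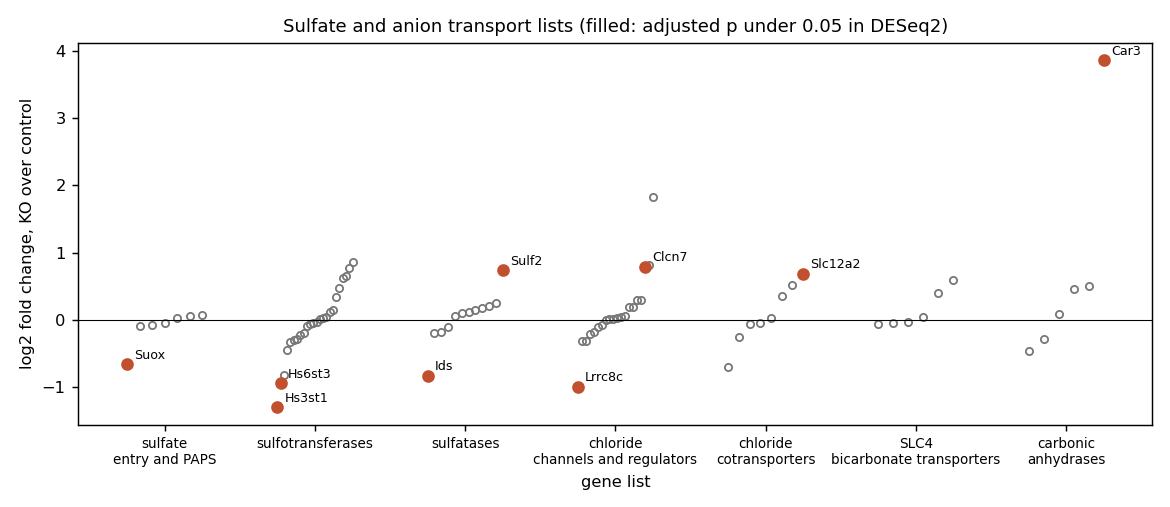
DESeq2 log2 fold change, KO over control (vertical axis), of each tested gene in 7 lists of sulfate and anion transport genes, with filled symbols for genes with an adjusted p under 0.05. Of 83 genes 9 are filled, 4 higher and 5 lower in KO.

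Over the 7 lists DESeq2 tested 83 genes and called 9 (4 higher and 5 lower), a share above the 4.51% of all genes tested, and the median log2 fold change was 0.02. The edgeR test called 1 of 87, Ids, near the 1.05% it called of all genes. The lists were chosen by function with earlier results of these data known, and their counts are a description of the genes around the SLC26 family.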

How the data were processed

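RNA sequencing libraries of sorted alpha cells, 4 control and 3 KO, were analysed from 1 table of raw counts per gene that the authors deposited. The submitters' processing notes name FastQC, STAR, featureCounts, DESeq2 and the build mm10, and roles, versions, annotation and strand setting are not given in the sources used here. Per the labels' protocols, RNA came from a micro column kit and libraries from a stranded low-input total RNA kit, with ribosomal depletion in the description although the molecule field says polyA RNA. The design text names DESeq2 without batch correction, so DESeq2 1.42.0 (R 4.3.3, Wald test, Benjamini-Hochberg adjustment, genes with at least 1 count) was the test, fitted over all genes, and edgeR 4.0.16 (quasi-likelihood, TMM) an alternative. Both were tested on simulated data. Symbols, exon lengths and overlaps came from GENCODE M21, promoter windows from RefSeq (GRCm38.p6). Members, lists and tests were chosen with earlier results of these data known. Genes named were all members, Nkx2-2, genes overlapping a member, called genes of 7 functional lists with 4 preset genes (Cftr, Papss1, Papss2, Slc12a2) and the 5 closest to Slc26a1; Gm9359, inside Slc26a3, had 0 counts in every library. Sts was not analysed here, and some listed alpha markers are not reported here. Marker lists describe the cells: beta markers summed to 6431 to 12010 CPM in controls and 10949 to 18091 in KO, delta 3748 to 6939 and 6404 to 11758, gamma 5854 to 10071 and 16515 to 21555, acinar 17.7 to 233 and 58.9 to 164, endothelial 7.35 to 11.7 and 7.40 to 20.6, leukocyte 17.0 to 26.0 and 17.4 to 18.7, and mesenchymal 24.4 to 64.4 and 45.0 to 72.1. Most of the leukocyte sum was C1qa, at 976 ± 225 (SD, n = 4) normalized counts in controls and 553 ± 124 (SD, n = 3) in KO. All other genes of that list had KO means above control means, and Ptprc, C1qb and Lyz2 each had 0 counts in 2 libraries. The limit a count of 0 allows covers counting error only and takes counts as independent.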

Additional observations from a re-analysis of the deposited data

Results flagged for a closer look

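Of 25 genes looked at for a control library far from the other 3 (by Dixon's critical value, which chance passes in about 1 of 20 groups), 2 were found. Slc26a8 in control 4 stood at 338 normalized counts against 209 to 214 in controls 1 to 3, and the unnumbered KO library had a like level of 339. Car3 in control 2 stood at 9.44 normalized counts against 0, 0 and 1.45 in the other controls. Slc26a1 in control 4, at 439, did not reach the critical value.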

How the results depend on the processing

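The number of genes called, 792 with 398 lower in KO, was 203 with 125 lower in edgeR, and it ran from 430 to 910 (lower: 242 to 419) when 1 library at a time was dropped, the lowest without KO 1. With size factors from total counts 297 of 981 were lower. With the DESeq2 filter on outlying counts (Cook filter) off, 517 of 902 were lower. The labels number libraries of both groups, and a replicate block could be fitted for numbers 1 and 2 only, in 4 libraries. It gave 580 genes called, 229 of them lower, beside 622 called in the same 4 libraries without the block, and a log2 fold change of -1.44 for Slc26a1. Over 14570 genes, control 1 minus control 2 correlated with KO 1 minus KO 2 at r = 0.28, and nothing in the labels says that a number marks a shared animal or day. Over the alternatives the log2 fold change of Slc26a1 ran from -3.21 to -1.44, and it was called in neither edgeR nor the fit with the block. The order of members by control level per kb held 3 of its 5 places without control 1 or control 2 (range without 1 control, 3 to 5) and all 5 with the longest transcript or CPM. All 105 list medians moved by less than the spread of their genes, and 41 of 105 small counts of called list genes moved by more than 1.5 times. Low-count members are limited by depth.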
